A study of Mus musculus with 2 samples.

Results

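Classical monocytes and the cells that derive from them were studied in the choroid and retinal pigment epithelium (RPE) of the mouse eye, as 142 of 3377 single-cell barcodes. A barcode was a member when it held at least 1500 unique molecular identifiers (UMIs, each standing for 1 captured RNA molecule) from at least 200 genes, at least 4 UMIs summed over F13a1, Fn1, Ly6c2 and Ccr2, at least 3 UMIs of Lyz2, at most 1 UMI summed over Treml4, Cd300e and Fcgr4, and none of Cd79a, Cd3e and Ncr1. The values of these genes therefore chose the cells and are given below as a description. There were 2 libraries, 1 per genotype, each pooling tissue of 1 male and 1 female aged 10 weeks. Both sets of mice carried the conditional allele Tsc1tm1Djk/J; the Tsc1 flox library had no Cre, and the mice of the Tsc1 RPE KO library also carried Best-Cre, which the labels call RPE-specific. Eye cups without the neuroretina were digested with collagenase, dispase and trypsin, and live cells were sorted for droplet sequencing of RNA 3' ends. With 1 library per genotype no difference between genotypes could be tested. All intervals are 95% intervals that cover counting error only, and any difference between the libraries may be one between mice, sorts or library preparations as much as between genotypes.

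Classical monocytes are made in the bone marrow, leave it through the chemokine receptor CCR2, circulate for a short time and enter tissues, where they can become macrophages or antigen-presenting cells. In the blood they are also the source of nonclassical monocytes, which lose Ly6C and CCR2 and patrol the vessel wall. In the choroid, a densely perfused vascular layer, both kinds may be captured from blood and from tissue, and the protocol does not tell these apart.

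The members numbered 81 of 1530 barcodes in Tsc1 flox (5.29%, Clopper-Pearson interval 4.23 to 6.54) but 61 of 1847 in Tsc1 RPE KO (3.30%, 2.54 to 4.22). Nonclassical monocytes, taken by at least 3 UMIs of Treml4, Cd300e and Fcgr4, numbered 84 (5.49%) and 405 (21.9%). Members thus made up 49.1% (41.2 to 57.0) of both kinds of monocyte in Tsc1 flox but 13.1% (10.2 to 16.5) in Tsc1 RPE KO. The gap between the libraries in the share of all barcodes depends on the limit of 1 UMI of Treml4, Cd300e and Fcgr4: with no such limit, an alternative chosen after seeing the data, 102 of 1530 barcodes (6.67%, 5.47 to 8.03) and 119 of 1847 (6.44%, 5.37 to 7.66) would pass. Those would make up 59.0% and 24.8% of both kinds together. A share also depends on how many cells of every other kind each sort delivered. Of the nonclassical cells, 52 and 270 held a UMI of Fabp4, a fatty-acid-binding protein, against 12 and 2 UMIs of Fabp4 in all members together.

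Members were deeply sequenced. Their median was 10359 UMIs and 2790 genes per cell in Tsc1 flox, with 10126 UMIs and 2839 genes in Tsc1 RPE KO, above the 6288 and 5852 UMIs of nonclassical monocytes and the 4543 and 4646 UMIs of all barcodes. In all, 839324 and 608687 UMIs lay in members, so that the limit a count of 0 allows, 3 UMIs, came to 3.57 and 4.93 counts per 1000000 UMIs of the class (CPM). Between the libraries 2 barcodes past the depth gate were shared, and no member was. Scrublet marked 1 member of Tsc1 flox and 0 of Tsc1 RPE KO as doublets, of 8 and 22 marked over all barcodes.

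The label was checked against marker lists. The rule used 5 of the 14 genes on the classical monocyte list, and its other 9 genes had a median of 60 UMIs per member (range 13 to 182) for Tsc1 flox and 58 (0 to 188) for Tsc1 RPE KO. Per 10000 UMIs these 9 genes had 58.2 and 58.9 in members, 32.1 and 41.9 in nonclassical monocytes and 8.64 and 9.44 in B cells. The most abundant of the 9, Plac8, had 3268 and 3581 CPM in members and was little lower in nonclassical monocytes, at 2374 and 2765 CPM. Cd14, also among the 9, had 546 and 526 CPM against 128 and 167 CPM. Of the surrounding tissue and of lymphocytes, the highest count in any member was 3 UMIs for endothelial markers, 2 for RPE markers, 3 for rod markers, 1 for the T cell list and 1 for the NK cell list, of which the rule held Cd3e and Ncr1 at 0. The B cell list reached 7 and 6 UMIs, with 5 and 2 members at 5 or more, and the erythroid list reached 10 and 3 UMIs, with 5 and 0 members at 5 or more. Rpe65, Cdh5 and Cldn5, which the rule did not use, were at 0 in all members. The resident macrophage list had a median of 12 UMIs per cell in Tsc1 flox, with 14 in Tsc1 RPE KO, led by Apoe, while Lyve1, Folr2 and Stab1 were at 0 in both. There were 3 barcodes that stood apart, all chosen after their values were seen. A Tsc1 flox barcode of 8789 UMIs held 1824 of S100a8 and 1956 of S100a9, and 51.0% of its UMIs were neutrophil markers. A second Tsc1 flox barcode, the one Scrublet marked, held 53 fibroblast UMIs where no other member held 5. A Tsc1 RPE KO barcode held all 147 UMIs of Retnla and 96 of the 199 UMIs of Lyz1. Results that rest on them are marked.

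**Figure D1:**
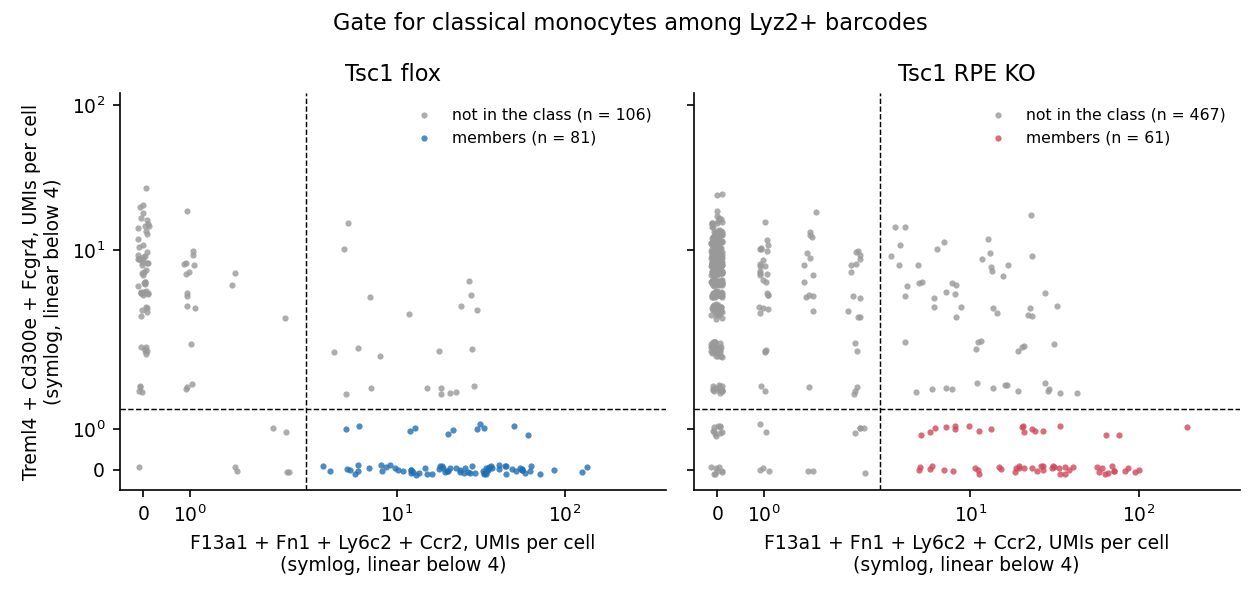
Each point is a barcode with at least 3 Lyz2 UMIs and no UMI of Cd79a, Cd3e or Ncr1; the x axis gives the summed UMIs of F13a1, Fn1, Ly6c2 and Ccr2 and the y axis those of Treml4, Cd300e and Fcgr4, on symlog axes with a small random shift. Dashed lines mark the gate, which holds 81 Tsc1 flox and 61 Tsc1 RPE KO members; most other points in Tsc1 RPE KO lie at the upper left, where nonclassical monocytes fall.

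The genes of the rule were spread unevenly over single members. Ly6c2, which encodes a surface protein of the Ly6 family and lies at chr15:75108158-75111970 (mm10), had 1389 CPM in members of Tsc1 flox and 1635 CPM in those of Tsc1 RPE KO. Its median was 8 UMIs per cell (range 0 to 117) and 10 UMIs (0 to 192). Ccr2, the receptor for the chemokine CCL2, at chr9:124101950-124113557, had 498 and 685 CPM, with medians of 4 UMIs (0 to 24) and 5 UMIs (0 to 28). Fibronectin 1 (Fn1, chr1:71585520-71653200) had 597 and 669 CPM, with medians of 4 (0 to 26) and 3 UMIs (0 to 44). F13a1, the catalytic subunit of clotting factor XIII, at chr13:36867178-37050244, had 400 and 488 CPM, with medians of 3 (0 to 21) and 2 UMIs (0 to 21). Lyz2, the lysozyme of myeloid cells, at chr10:117277331-117282321, was by far the most abundant of these genes, with 24190 and 23469 CPM and medians of 242 UMIs (5 to 525) and 244 UMIs (3 to 756). No member therefore had to express all of the first 4 genes: 49 members of Tsc1 flox and 32 of Tsc1 RPE KO held UMIs of all 4, and 4 in each library held UMIs of 1 gene only.

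A UMI of Ccr2 was found in 90.1% and 91.8% of members, and in 51.9% and 59.0% after each cell was thinned to 1500 UMIs. In B cells, whose median depth was 3912 and 3892 UMIs, the shares were 0.966% and 0 of 328 cells (where a limit of 3 counts allows up to 0.915% of cells with a UMI), or 0.242% and 0 after thinning. Ly6c2 was found in 86.4% and 82.0% of members, against 2.42% and 0.915% of B cells, and in 61.7% and 59.0% against 0.725% and 0.305% after thinning. Both genes were among those that chose the members, so these shares describe the rule and the level of free RNA and are no test.

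Just inside and just outside the thresholds the values were as follows. A marker sum of exactly 4 was found in 2 members of Tsc1 flox and 0 of Tsc1 RPE KO, and 4 and 5 barcodes with a sum of 3 were left out. Those left out held 34.7 and 40.9 UMIs per 10000 of classical markers that the rule does not use, against 58.2 and 58.9 in members, and 33.6 and 37.0 of nonclassical markers the rule does not use, against 16.2 and 16.6. At the Lyz2 threshold, 4 and 3 members held 3 to 10 UMIs, and 4 and 6 barcodes left out held 1 or 2. The latter carried 106 and 73.5 fibroblast UMIs per 10000, against 0.703 and 0.115 in members. At the nonclassical threshold, 11 and 19 members held 1 UMI of Treml4, Cd300e or Fcgr4, and 8 and 14 barcodes were left out with 2. A further 13 and 44 barcodes held at least 3 of these UMIs beside a marker sum of at least 4; they count as nonclassical here. Per 10000 UMIs, the barcodes with 2 held 66.1 and 49.8 UMIs of the classical markers that the rule does not use, and those with at least 3 held 62.4 and 67.0, close to the members' 58.2 and 58.9. Their nonclassical markers outside the rule were higher than the members', at 27.4 and 25.6 for a sum of 2 and 34.6 and 47.2 for 3 or more, so that this limit divides barcodes that carry both kinds of marker.

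Tsc1, the gene that Best-Cre is meant to remove in RPE cells, lies at chr2:28641228-28691167 and encodes hamartin, a brake on mTORC1. It had 17 UMIs in Tsc1 flox members (20.3 CPM, Poisson interval 11.8 to 32.4) and 11 in Tsc1 RPE KO members (18.1 CPM, 9.02 to 32.3). The intervals overlap almost wholly, and at this depth no difference of Tsc1 in monocytes was detectable. The reads come from the 3' end of transcripts, so that this count does not check the deletion itself. Of the mTORC1 pathway list 15 of 31 genes were measured in members, with 1 at least 1.5-fold higher (Rragc, 33.4 and 70.6 CPM) and 1 at least 1.5-fold lower (Sqstm1, 97.7 and 60.8 CPM) in Tsc1 RPE KO. In free RNA, taken from barcodes with 10 to 100 UMIs, Sqstm1 had 103 and 105 CPM, above the members in both libraries. The median log2 ratio of the list was 0.01. Over all genes with at least 50 UMIs in members of both libraries together, which is what measured means between the libraries, 149 of 3804 (3.92%) were at least 1.5-fold higher and 202 (5.31%) at least 1.5-fold lower, with a median log2 ratio of -0.01. The interval excluded a ratio of 1 for 104 and 101 of them.

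The largest coherent difference between the libraries lay in MHC class II, the molecules that present peptides to helper T cells. Of the presentation list, 5 of 10 measured genes were at least 1.5-fold higher in Tsc1 RPE KO and 0 lower, and the median log2 ratio was 0.64. Cd74, the invariant chain that guides class II molecules through the cell, had 3758 CPM in Tsc1 flox (interval 3628 to 3891) but 7096 CPM in Tsc1 RPE KO (6886 to 7310), a ratio of 1.89 (1.80 to 1.98). The chains of the class II molecules followed: H2-Aa had 1378 and 2497 CPM (ratio 1.81, 1.68 to 1.96) and H2-Ab1 had 971 and 1801 CPM (1.85, 1.69 to 2.03). H2-Eb1 had 651 and 1465 CPM (2.25, 2.02 to 2.51). These intervals treat UMIs as independent, which they are not when a few cells hold most of them. The fifth gene was H2-DMb1, a chain of the peptide exchange factor. Ctss, the protease that trims the invariant chain, had 1851 and 2192 CPM, a ratio of 1.18.

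Most of the class II UMIs lay in a minority of members. The summed UMIs of H2-Aa, H2-Ab1 and H2-Eb1 ranged from 0 to 393 per cell in Tsc1 flox (median 0), while Tsc1 RPE KO ranged from 0 to 399 (median 2), and 49 and 25 members held none. At least 10 UMIs, a range chosen after the values were seen, were held by 20 of 81 Tsc1 flox members (24.7%, 15.8 to 35.5) and 27 of 61 Tsc1 RPE KO members (44.3%, 31.5 to 57.6). The 2 intervals overlap, and with 1 library per genotype the difference has no replicate check. With every cell thinned to 1500 UMIs, at least 2 class II UMIs were held by 25.9% (16.8 to 36.9) and 42.6% (30.0 to 55.9). Among nonclassical monocytes the order was the other way, with 16.7% (9.42 to 26.4) and 9.14% (6.51 to 12.4) at 10 UMIs or more. These intervals overlap too, and some of these cells also had a marker sum of at least 4. If members could hold 2 UMIs of Treml4, Cd300e and Fcgr4, 23 and 35 of them would be class II cells. With no such limit there would be 30 and 55, the added ones counted here as nonclassical.

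**Figure D2:**
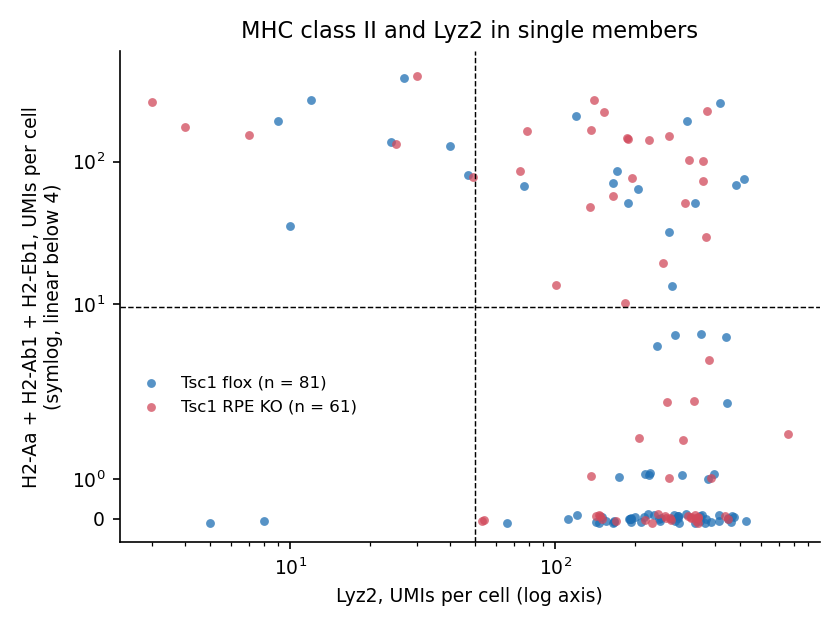
Each point is a member; the x axis gives its Lyz2 UMIs (log axis) and the y axis its summed UMIs of H2-Aa, H2-Ab1 and H2-Eb1 (symlog, with a small random shift), by library. Dashed lines mark 50 Lyz2 UMIs and 10 class II UMIs: of the members at or above 50 Lyz2 UMIs, 13 of 72 Tsc1 flox cells and 21 of 55 Tsc1 RPE KO cells lie above the horizontal line, and a small set with less Lyz2 lies at the left.

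Among members with at least 50 Lyz2 UMIs, 13 of 72 Tsc1 flox cells (18.1%, 9.98 to 28.9) and 21 of 55 Tsc1 RPE KO cells (38.2%, 25.4 to 52.3) held at least 10 class II UMIs. Within these cells, which were chosen by 3 of the same genes, H2-Aa had 4245 and 4622 CPM, H2-Ab1 2991 and 3486 CPM, Cd74 12951 and 13820 CPM, and H2-Eb1 1907 and 2766 CPM. In the other members with at least 50 Lyz2 UMIs, H2-Aa had 19.0 and 23.9 CPM. The ratio within class II cells was 1.45 for H2-Eb1 and at most 1.17 for the other 3 genes, against 2.03 to 2.90 over all members with at least 50 Lyz2 UMIs. Since a minimum of these UMIs chose the cells, their levels within them are a description only.

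Class II cells among these members shared further genes in both libraries. Genes at least 2-fold higher in class II cells in both libraries numbered 10 of 1595 (0.627%), among them H2-Aa, H2-Ab1 and H2-Eb1, which define the cells. Ciita, the master regulator of class II transcription, had 186 CPM against 6.92 CPM in Tsc1 flox (25 and 4 UMIs), and 142 CPM against 2.98 CPM in Tsc1 RPE KO (30 UMIs and 1 UMI). H2-DMb1 had 468 against 34.6 CPM and 521 against 35.8 CPM, and H2-DMa was 2.51-fold and 2.52-fold higher. Tmem176a and Tmem176b, paired membrane channels known from immature dendritic cells, were 4.77-fold and 3.42-fold higher in Tsc1 flox and 4.44-fold and 2.95-fold higher in Tsc1 RPE KO. Calr, the chaperone calreticulin, was 2.17-fold and 2.73-fold higher. Apoe, a lipid carrier made by macrophages, had 2085 against 1219 CPM in Tsc1 flox, with 3088 against 2059 CPM in Tsc1 RPE KO.

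Several genes of the classical monocyte and granule lists were lower in class II cells. As many genes, 10 of 1595 (0.627%), were at least 2-fold lower in both libraries. Haptoglobin (Hp) had 156 CPM in class II cells against 577 in the other cells of Tsc1 flox, and 213 against 898 CPM in Tsc1 RPE KO. Mgst1, a glutathione transferase, had 148 against 462 CPM and 213 against 504 CPM, and the antiprotease Slpi was at 0 of 134742 UMIs against 207 CPM in Tsc1 flox and 37.9 against 149 CPM in Tsc1 RPE KO. Genes of the rule did not all follow: Ccr2 had 705 against 489 CPM in Tsc1 flox and 663 against 633 CPM in the other library. F13a1 had 453 against 455 CPM in Tsc1 flox but 355 against 648 CPM in Tsc1 RPE KO (ratio 0.548, 0.416 to 0.716). Ly6c2 had 772 against 1712 CPM in Tsc1 flox but 1880 against 1764 CPM in Tsc1 RPE KO, where a single cell held 192 Ly6c2 UMIs beside 228 class II UMIs. Without that cell the level in Tsc1 RPE KO class II cells was 1039 CPM, below the other cells as in Tsc1 flox. It was left out after the values were seen. The Tsc1 flox cells with 117 and 115 Ly6c2 UMIs, which held no class II UMI, stayed among the other cells of that library. Fn1 had 393 against 754 CPM (ratio 0.522, 0.385 to 0.695) and 483 against 883 CPM (0.547, 0.432 to 0.687). Of the 13 genes listed for type 2 and monocyte-derived dendritic cells, 3 are given for these class II cells. Cd209a had 3 and 1 UMIs, Flt3 4 and 6, and Ccr7 0 and 0. The others, among them Clec10a, which led the list in Tsc1 RPE KO members, are not given for these cells.

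The promoters of class II genes carry a conserved box bound by the factor NF-Y, the Y box. RefSeq promoter sequences (GRCm38.p6) were matched for H2-Aa, H2-Eb1, H2-DMa and H2-DMb1; H2-Ab1 was the fifth gene looked up. The letters CTGATTGG, searched on both strands from 250 bases before to 50 bases after the start, were found in 2 of the 4, against 4.10% of 32851 promoters. The 150 bases before the start of H2-Aa (chr17:34287824-34287973, minus strand) and H2-Eb1 (chr17:34305717-34305866, plus strand) are shown, as the chain genes whose UMIs define the class II cells, with the match in capitals.
H2-Aa: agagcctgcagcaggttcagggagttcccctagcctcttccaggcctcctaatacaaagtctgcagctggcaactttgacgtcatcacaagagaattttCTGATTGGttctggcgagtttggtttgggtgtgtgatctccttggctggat
H2-Eb1: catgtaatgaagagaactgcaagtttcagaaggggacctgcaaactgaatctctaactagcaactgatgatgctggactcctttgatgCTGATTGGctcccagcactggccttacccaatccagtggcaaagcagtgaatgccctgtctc
A match is a description of the sequence, and the absence of these letters in the other windows says nothing further.

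A small set of members held little Lyz2. Fewer than 50 Lyz2 UMIs, again a range chosen after the values were seen, were found in 9 members of Tsc1 flox and 6 of Tsc1 RPE KO. Their Lyz2 level was 1442 and 1888 CPM, against 28216 and 25938 CPM in the other members. Class II was high in 7 of the 9 and 6 of the 6, and H2-Aa reached 4548 and 8576 CPM. Of 1783 genes, 30 (1.68%) were at least 2-fold higher and 159 (8.92%) at least 2-fold lower in both libraries than in the other members. Klrd1, the receptor chain CD94, had 372 and 384 CPM against 5.61 and 5.49 CPM in the other members. Cd209a, a C-type lectin of type 2 and monocyte-derived dendritic cells, had 285 and 80.0 CPM against 8.41 and 1.83 CPM; the last is 1 UMI. Flt3, the growth factor receptor of dendritic cells, had 190 and 112 CPM against 25.2 and 23.8 CPM. Cd7 had 460 and 592 CPM, from 58 and 37 UMIs, against 0 and 2 UMIs in the other members. Zbtb46, a transcription factor of conventional dendritic cells, had 3 and 5 UMIs, against 1 and 0 UMIs in the others.

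Genes of monocytes and macrophages were low in the same cells. Apoe had 0 and 2 UMIs against 1383 and 2457 CPM in the other members, and haptoglobin (Hp) had 0 in both libraries against 498 and 633 CPM. Cebpb, a transcription factor of monocytes and macrophages, had 285 and 208 CPM against 2812 and 3030 CPM. Ly6c2 had 570 and 112 CPM against 1534 and 1809 CPM, and Csf1r, the receptor for the growth factor M-CSF, 127 and 96.0 CPM against 438 and 485 CPM. In 2 of the 9 Tsc1 flox cells class II was at 0, and these held 71 and 50 UMIs of the plasmacytoid dendritic cell list, 33 and 11 of Cd7, and 45 and 8 of Ly6c2. Plasmacytoid markers reached 22 at most in Tsc1 RPE KO members. For these cells of low Lyz2 the data go against the label of classical monocyte. The dendritic cell markers Klrd1, Cd209a, Flt3 and Zbtb46 were higher, and Apoe, Hp and Cebpb lower, than in the other members. Of the 13 genes listed for type 2 and monocyte-derived dendritic cells, only Klrd1, Cd209a and Flt3 are given for them. Ccl17 and Ccr7 of that list were at 0 in all members, as were Mgl2 in Tsc1 flox and Fscn1 in Tsc1 RPE KO. The cells of low Lyz2 differed among themselves: the Tsc1 RPE KO cell nearest the limit, with 49 Lyz2 UMIs, held no UMI of Klrd1, Cd209a, Flt3 or Cd7. The differences between the libraries given above were also computed without them: the ratios of Cd74 and H2-Aa were then 2.03 (1.92 to 2.14) and 2.20 (1.99 to 2.45).

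A second set of cells stood out by interferon-stimulated genes, which cells switch on after sensing type I interferon. The sum of Ifit1, Ifit2, Ifit3, Isg15, Rsad2, Oasl2, Usp18 and Irf7 had a median of 4 UMIs per member in both libraries, with a range of 0 to 111 and 0 to 108. A sum of at least 50 was found in 4 members of each library, at 57, 59, 102 and 111 UMIs for Tsc1 flox and 51, 54, 73 and 108 UMIs for Tsc1 RPE KO. That is 4.94% (1.36 to 12.2) and 6.56% (1.82 to 15.9) of members, against 3 of 84 and 1 of 405 nonclassical monocytes. The latter had fewer UMIs per cell (medians of 6288 and 5852, against 10359 and 10126), so that a fixed sum was harder for them to reach.

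Against the other members, 64 of 1783 genes (3.59%) were at least 2-fold higher in these cells in both libraries and 50 (2.80%) at least 2-fold lower. Among the genes that chose the cells, Ifit3 had 1186 and 1022 CPM against 87.4 and 15.9 CPM, and Isg15, a ubiquitin-like modifier, had 1779 and 1192 CPM against 114 and 134 CPM. Others that did not choose them were higher too. Ifi47, a GTPase of the immune response, had 980 and 900 CPM against 136 and 155 CPM. Fcgr1, the high-affinity receptor for IgG, had 413 and 438 CPM against 82.4 and 82.8 CPM. Zbp1, a sensor of nucleic acids, had 825 and 535 CPM against 119 and 130 CPM, and Ms4a4c had 2218 and 1532 CPM against 548 and 423 CPM. Rps16, a ribosomal protein, was ranked among the lowest genes without reaching 2-fold in either library, at 1470 and 1824 CPM against 2894 and 2852 CPM, a ratio of 0.508 and 0.640. Also ranked low was Lgals1 (galectin-1) at 181 and 170 CPM against 586 and 409 CPM; the latter rests on 7 UMIs in each library.

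Ly6c2 was high in some of these cells. It held 117, 115, 12 and 3 UMIs in the 4 Tsc1 flox cells and 192, 60, 11 and 4 UMIs in those of Tsc1 RPE KO, against medians of 8 and 10 UMIs over all members. The summed level was 6369 and 6494 CPM against 1148 and 1283 CPM in the other members. In each library 2 of the 4 cells made up most of it, while the other 2 lay near the medians or below. Cxcl10, a chemokine induced by interferons, was at 160 CPM in Tsc1 flox but 16.4 CPM in Tsc1 RPE KO members, a ratio of 0.103 (0.0482 to 0.195). It lay in 6 and 2 members, and 81, 24 and 23 of its 134 UMIs in Tsc1 flox were in 3 of the cells with high interferon-stimulated genes, so that 60.4% came from 1 cell.

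**Figure D3:**
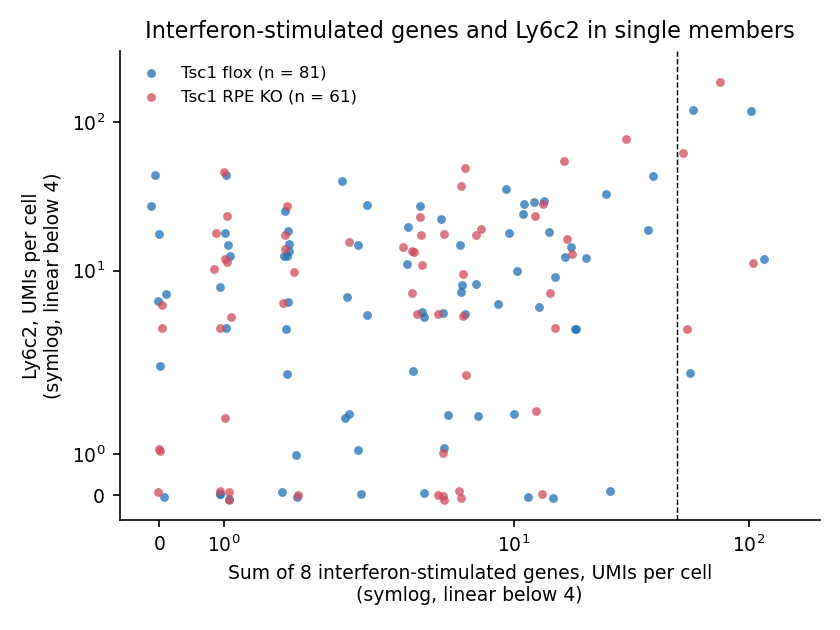
Each point is a member; the x axis gives its summed UMIs of 8 interferon-stimulated genes and the y axis its Ly6c2 UMIs, on symlog axes with a small random shift, by library. The dashed line marks a sum of 50, with 4 members of each library to its right. Of these, the Tsc1 flox cells with 117 and 115 Ly6c2 UMIs are the highest of their library and the Tsc1 RPE KO cells with 192 and 60 are the highest and the third highest.

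The element bound by interferon regulatory factors reads GAAA, any 2 bases, GAAA. It was searched on both strands in RefSeq promoters (GRCm38.p6) of the 8 genes, of which all but Usp18 were matched, and was found in 4 of 7, Ifit1, Ifit3, Isg15 and Rsad2, against 3.44% of 32851 promoters of the same length. The 150 bases before the start are shown for Isg15 (chr4:156200819-156200968, minus strand), Ifit1 (chr19:34640739-34640888, plus strand) and Rsad2 (chr12:26456453-26456602, minus strand) as 3 of the genes whose sum marks these cells. Capitals mark the matches, which read as the reverse complement in Ifit1 and Rsad2, and in Isg15 the run holds 3 overlapping matches.
Isg15: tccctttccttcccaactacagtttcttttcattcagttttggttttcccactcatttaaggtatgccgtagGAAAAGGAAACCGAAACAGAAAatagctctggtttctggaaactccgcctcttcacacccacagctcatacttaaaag
Ifit1: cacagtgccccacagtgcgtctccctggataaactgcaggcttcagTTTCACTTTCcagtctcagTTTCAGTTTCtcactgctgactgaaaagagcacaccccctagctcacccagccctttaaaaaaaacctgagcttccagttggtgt
Rsad2: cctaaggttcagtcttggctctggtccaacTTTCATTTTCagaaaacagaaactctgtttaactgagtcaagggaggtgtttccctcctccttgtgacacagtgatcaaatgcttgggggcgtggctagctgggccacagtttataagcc
Ifit1 had 567 and 438 CPM in the cells with high sums against 16.2 and 15.9 CPM in the others, and Rsad2, the antiviral enzyme viperin, had 1160 and 754 CPM against 40.0 and 15.9 CPM.

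The interferon-stimulated list as a whole was centred near a ratio of 1 between the libraries. Of 33 measured genes 1 was at least 1.5-fold higher in Tsc1 RPE KO (Ifi209, 135 and 265 CPM) and 3 lower (Ifit3, Mndal and Usp18), with a median log2 ratio of -0.03. Mndal, a gene of the interferon-inducible Ifi200 family, had 693 and 432 CPM (ratio 0.623, 0.537 to 0.722), and its relative Ifi202b had 310 and 135 CPM (0.435, 0.335 to 0.559).

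**Figure D4:**
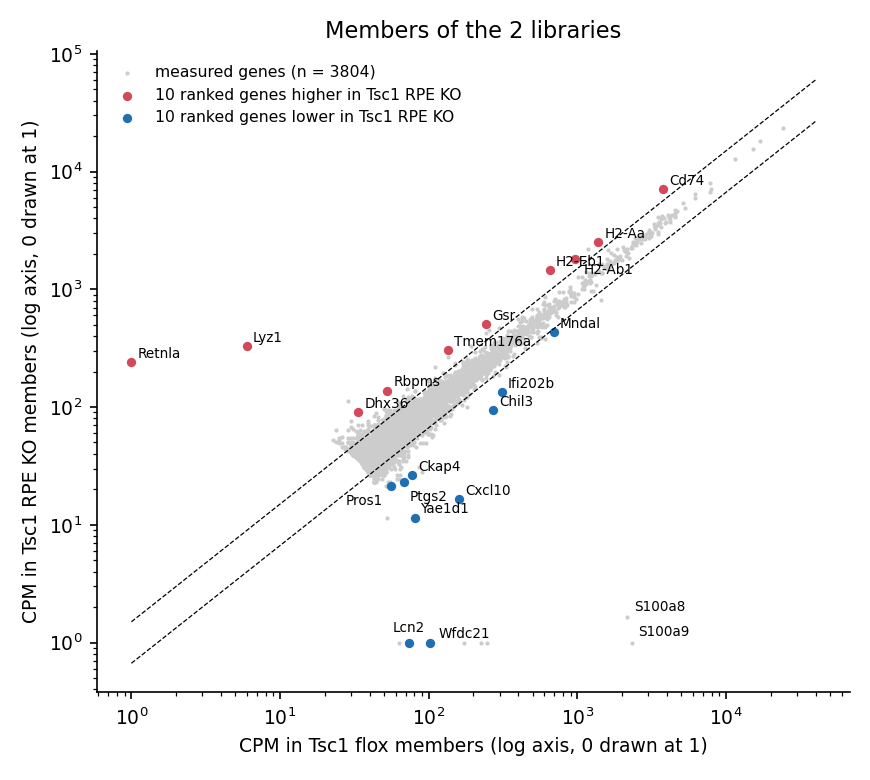
Each point is a gene with at least 50 UMIs in members of both libraries together; the axes give its CPM in Tsc1 flox and Tsc1 RPE KO members on log axes, with 0 drawn at 1. Dashed lines mark ratios of 1.5; the 10 genes ranked highest and the 10 ranked lowest are named beside S100a8 and S100a9, among them Cd74 at 3758 and 7096 CPM and Chil3 at 272 and 93.6 CPM.

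Other genes that were higher in Tsc1 RPE KO members included Gsr, glutathione reductase, with 244 and 508 CPM (ratio 2.08, 1.74 to 2.49), seen in 55 and 52 cells. Tmem176a, given above as higher in class II cells of both libraries, had 135 and 307 CPM (2.28, 1.80 to 2.91). Whether it followed the share of class II cells was not tested. Rbpms, an RNA-binding protein, had 52.4 and 138 CPM (2.63, 1.81 to 3.88). Dhx36, a helicase, had 33.4 and 90.4 CPM (2.71, 1.69 to 4.43). In free RNA Rbpms had 59.0 and 125 CPM and Dhx36 had 63.1 and 89.0 CPM. Both were above the members in Tsc1 flox and slightly below them in Tsc1 RPE KO. Gsr had 69.6 and 229 CPM in free RNA, below the members in both libraries but also higher in Tsc1 RPE KO. Apoe had 1175 and 2208 CPM (1.88, 1.73 to 2.04). In nonclassical monocytes the order of Apoe was the other way, at 4571 and 2419 CPM, and free RNA held 1029 and 1403 CPM. Lyz1 had 5.96 and 327 CPM, but 48.2% of its 199 UMIs in Tsc1 RPE KO were in 1 cell. Lyz1 and Lyz2 are near-identical neighbours on chromosome 10, so that reads may have been split between them.

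Differences in granule and antimicrobial genes rested mostly on 1 barcode. Of 25 measured genes 7 were at least 1.5-fold lower in Tsc1 RPE KO and 2 higher, with a median log2 ratio of -0.12. Of the 7, S100a8, S100a9, Ngp, Camp, Lcn2 and Wfdc21 rested on the single Tsc1 flox barcode with neutrophil genes. S100a9, Camp, Lcn2 and Wfdc21 were found in no other member. Without that barcode 19 genes of the list were measured, of which 1 was lower (Chil3) and 2 were higher (Lyz1 and Ncf1), with a median log2 ratio of -0.01. Chil3, a chitinase-like protein of monocytes and neutrophils, did not rest on it. It had 272 CPM in Tsc1 flox but 93.6 CPM in Tsc1 RPE KO (ratio 0.345, 0.253 to 0.463), in 26 and 17 cells, and without that barcode the ratio was 0.357 (0.262 to 0.480). The abundant members of the list were close: Ifitm3, an antiviral membrane protein, had 6153 and 5936 CPM, Plac8 3268 and 3581 CPM, and S100a4, a calcium-binding protein, 3085 and 2845 CPM.

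Early response genes, which tissue digestion can also switch on, were mostly close and otherwise lower in Tsc1 RPE KO, with 0 of 25 measured genes at least 1.5-fold higher and 5 lower and a median log2 ratio of -0.16. The 5 were Fosb (182 and 100 CPM), Egr1 (63.1 and 24.6 CPM), Atf3 (603 and 378 CPM), Hspa1b and Hsph1, while Fos had 3502 and 3085 CPM and Junb 3036 and 2711 CPM. In free RNA Egr1 had 482 and 441 CPM and Fosb 193 and 158 CPM, above the members in both libraries. Ptgs2, the inducible cyclooxygenase, had 67.9 and 23.0 CPM, and 31.6% of its Tsc1 flox UMIs were in 1 cell. Among members with at least 50 Lyz2 and under 10 class II UMIs, the ratio of Fosb turned to 1.19 and that of Ptgs2 to 1.11. Whether handling of the tissue had a part in these values was not tested. Ckap4 had 77.4 and 26.3 CPM, and Pros1, the anticoagulant protein S, had 56.0 and 21.4 CPM. Yae1d1 had 81.0 and 11.5 CPM, with 82.4% of the Tsc1 flox UMIs in 1 cell.

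In the remaining lists few genes differed. Of trafficking receptors 1 of 11 measured genes was at least 1.5-fold higher in Tsc1 RPE KO (Cxcr4, a bone marrow retention receptor, 150 and 228 CPM) and 0 lower. In free RNA Cxcr4 had 243 and 235 CPM, above the members in both libraries. Of transcription factors of monocyte fate 0 of 18 were higher and 1 lower (Runx1, 168 and 104 CPM), while Spi1, which encodes PU.1, had 640 and 749 CPM. Phagocytic and pattern receptors had 1 of 21 higher (Clec12a, an inhibitory lectin, 124 and 196 CPM) and 1 lower (Msr1, the scavenger receptor A, 72.7 and 42.7 CPM). Of lysosomal genes 1 of 24 was higher and 1 lower, and of 16 glycolytic genes 1 was lower (G6pdx, 90.5 and 57.5 CPM). In lipid handling 2 of 12 were higher, Apoe and the phospholipid transfer protein Pltp (28.6 and 112 CPM). Free RNA held 69.6 and 135 CPM of Pltp, again above the members in both libraries. None of the 4 measured cell cycle genes and none of the 12 measured mitochondrial genes passed 1.5-fold, and the proliferation marker Mki67 had 1 and 2 UMIs in all members.

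Complement C1q, a product of resident macrophages, was rare in members. At least 3 UMIs of C1qa, C1qb and C1qc were held by 1 of 81 members in Tsc1 flox (1.23%, 0.0313 to 6.69) but 3 of 61 in Tsc1 RPE KO, which is 4.92%, against 2 of 84 and 2 of 405 nonclassical monocytes. Nonclassical monocytes had fewer UMIs per cell, so that this minimum was harder for them to reach. The 4 members held 12, 3, 24 and 29 C1q UMIs. The last was the Tsc1 RPE KO cell with all Retnla UMIs; it also held 44 Fn1, 28 Ccr2 and 228 class II UMIs and no Ly6c2. After thinning to 1500 UMIs no member of either library held 3, a minimum that is much harder to reach at that depth, so that no limit on the share is drawn from it. No order between the libraries was detectable at this number of cells.

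Against nonclassical monocytes of the same library, members differed in 97 genes that were at least 2-fold higher in both libraries (2.53% of 3841 with at least 50 UMIs in each) and 188 that were at least 2-fold lower (4.89%). Because both classes were chosen by genes of the same cells, this is a description. The median log2 ratio of all genes was -0.08 for Tsc1 flox and -0.12 for Tsc1 RPE KO, and scaling to the median ratio gave 131 higher and 145 lower. F13a1, which the rule used, had 400 and 488 CPM in members against 33.8 and 9.20 CPM in nonclassical monocytes. Treml4, which the rule held low, had 9.53 and 18.1 CPM against 473 and 573 CPM, Fcgr4, an Fc receptor for IgG, had 3.57 and 13.1 CPM against 416 and 312 CPM, and Cd300e had 0 UMIs in members of both libraries against 274 and 270 CPM.

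**Figure D5:**
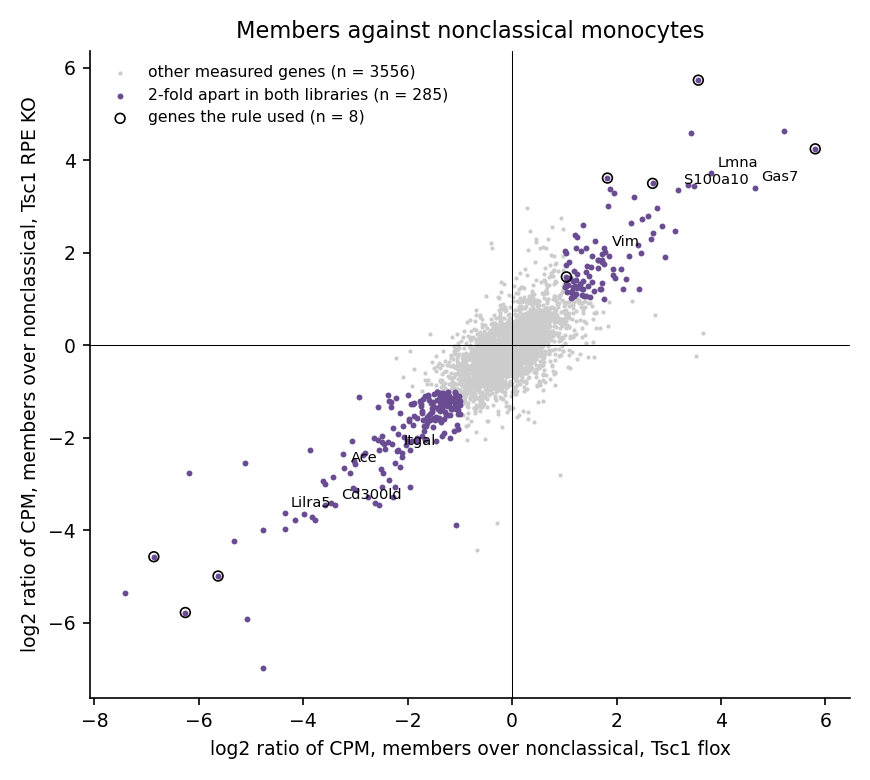
Each point is a gene measured in both classes of both libraries; the axes give the log2 ratio of its CPM in members over nonclassical monocytes in Tsc1 flox (x) and Tsc1 RPE KO (y). Coloured points are the genes at least 2-fold apart in the same direction in both libraries, 97 higher and 188 lower, and circles mark 8 genes the rule used; S100a10 and Lmna lie at the upper right and Ace and Lilra5 at the lower left.

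Among genes the rule did not use, S100a10, a partner of annexin A2, had 1327 and 1086 CPM in members against 148 and 107 CPM, a ratio of 8.99 and 10.2. Vim, the filament protein vimentin, had 4196 and 3756 CPM against 1220 and 934 CPM, and Lmna, which encodes lamin A, 75.1 and 70.6 CPM against 5.33 and 5.37 CPM. Capg, an actin-capping protein, had 341 and 265 CPM against 64.0 and 58.6 CPM. Gpr183, a receptor for oxysterols, had 154 and 108 CPM against 17.8 and 19.5 CPM. Wfdc17, a small secreted protein, was 4.82-fold and 6.22-fold higher, Ier3 7.32-fold and 6.01-fold, and Olfm1 11.3-fold and 10.9-fold. Gas7 was 25.1-fold and 10.6-fold higher, but rested on 2 UMIs in nonclassical monocytes of Tsc1 flox. There Lmna rested on 3 UMIs and Olfm1 on 5.

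Of the genes lower in members, Ace, angiotensin-converting enzyme, had 85.8 and 117 CPM against 795 and 732 CPM (ratio 0.108 and 0.159), and Itgal, the alpha chain of the adhesion receptor LFA-1, had 218 and 243 CPM against 1003 and 1180 CPM. Cd300ld had 29.8 and 29.6 CPM against 313 and 323 CPM, Adgre4 60.8 and 112 CPM against 437 and 581 CPM, and Gngt2, a G protein subunit, 298 and 467 CPM against 1750 and 2230 CPM. Of 12 trafficking receptors measured in both classes, 4 were at least 2-fold lower in members (Itgal, Itgb2, Spn and S1pr5). Cx3cr1, the fractalkine receptor that is often used as a nonclassical marker, was lower in members in both libraries. It had 279 and 286 CPM in members against 446 and 629 CPM, past 2-fold in Tsc1 RPE KO only.

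Of 30 measured interferon-stimulated genes, 9 were higher in members and 0 lower, with median log2 ratios of 0.73 for Tsc1 flox and 1.53 for Tsc1 RPE KO. Ifi204 had 317 and 327 CPM against 148 and 120 CPM, Ms4a4c 626 and 498 CPM against 304 and 149 CPM, and Xaf1 157 and 159 CPM against 58.7 and 53.3 CPM. The level in nonclassical monocytes differed with Fabp4: Ms4a4c had 526 and 240 CPM in those without a Fabp4 UMI and 142 and 98.1 CPM in those with one. Of the matrix and coagulation list 4 of 13 genes were higher and 0 lower, namely Thbs1, Anxa1, Vim and Lgals1. Thrombospondin 1 (Thbs1), a matrix protein, had 97.7 and 90.4 CPM, 6.11-fold and 6.93-fold above nonclassical monocytes. Of phagocytic and pattern receptors 3 of 23 were higher and 3 lower; Cd14, the co-receptor for bacterial lipopolysaccharide, had 546 and 526 CPM against 128 and 167 CPM.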

How the data were processed

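Per the labels' protocols, libraries were made with the 10x 3' v2 kit. Per the submitters' processing notes, reads were processed with Cell Ranger 2.1.1 on mm10, while the matrix header names Cell Ranger 4; which one made the files was not settled. The deposited values are raw UMI counts per gene and barcode, without a barcode filter. From these, the UMIs of each class were added up within a library and divided by that class's total (CPM), using numpy 2.4.6 and scipy 1.17.1 in Python 3.11.15; Scrublet was run through scanpy 1.11.5. CPM has exact Poisson, ratios have exact conditional binomial and shares have Clopper-Pearson 95% intervals. A ratio against 0 used a floor of 3 counts. Of 32285 genes, 3 listed names were not matched (Clec7a, Mnda, Mx1). The members, lists and rules were chosen with earlier results of these data known. Named between the libraries were the 10 highest and 10 lowest ratios by the interval bound nearest 1, without rule genes, markers of other classes, mitochondrial, sex-linked and free-RNA genes; against nonclassical monocytes 15 higher and 10 lower; and from each list the most abundant genes and those past 1.5-fold. The ranges of class II, Lyz2 and interferon-stimulated genes, and the genes named in them, were chosen after their values were seen. B cells were barcodes with at least 2 Cd79a UMIs. Ratio calling was run on simulated data, the outcome of which is not given here. Gene positions come from GENCODE M21. Alternatives covered gate values, doublets, mixed barcodes, depth, free RNA, scaling, cell weight and count filters. Some genes of the lists are not reported here.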

Additional observations from a re-analysis of the deposited data

How the results depend on the processing

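Of 152 recomputed shares and counts under 24 alternatives, 128 stayed within the spread set for them and 24 moved. Under the alternatives set at the start, the share of members ranged from 4.71% to 5.77% in Tsc1 flox and from 3.12% to 3.64% in Tsc1 RPE KO, but none of these changed the limit on Treml4, Cd300e and Fcgr4. With that limit raised to 2 UMIs the shares were 5.82% and 4.06%, at 9 UMIs 6.54% and 6.01%, and with no limit 6.67% and 6.44%, so that the lower share in Tsc1 RPE KO depends on it. At 9 UMIs 307 genes, and with no limit 339, were higher in Tsc1 RPE KO (of 4968 and 5107 measured). The share with class II ranged from 18.1% to 30.0% and from 38.2% to 46.7%. Between the libraries 149 genes were higher and 202 lower in Tsc1 RPE KO, of 3804 measured. These counts became 35 and 30 (of 616 measured) with cells thinned to 1500 UMIs and 549 and 635 (of 6306) at a minimum of 20 UMIs. At a minimum of 100 they were 51 and 45 (of 2119), and at a minimum of 1 they were 2319 and 2971 (of 12551). Against nonclassical monocytes the 97 higher and 188 lower genes, of 3841 measured, became 32 and 50 (of 777) when thinned. They were 182 and 294 (of 6302) at 20 UMIs, 64 and 100 (of 2158) at 100, and 772 and 794 (of 11893) at 1. Fewer or more genes were measured under each of these settings. The share of members with at least 3 C1q UMIs was 0 in Tsc1 flox, with 0 in Tsc1 RPE KO after thinning. Among alternatives chosen after seeing the data, leaving out members with class II or low Lyz2 gave 129 higher and 131 lower genes of the 2631 measured, where fewer genes could pass, and there the ratio of Tsc1 RPE KO over Tsc1 flox turned for H2-Eb1 (0.493), Ptgs2 (1.11), Sdc3 (0.708) and Fosb (1.19); the class II cells are left out there by construction, and for the other genes the cause was not tested. Of 2705 recomputed values of single genes, 2523 stayed alike, 178 moved and 4 turned. No paired analysis was possible because each genotype has 1 library, and for the same reason none could be left out.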

Other observations

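Some genes that differed between the libraries in members lie next to each other in the genome and also differed in other cells; these windows were chosen after the values were seen, and no cause was tested. Gsr lies on chromosome 8 near Ppp2cb, Rbpms, Gtf2e2, Leprotl1 and Saraf. Its level in Tsc1 flox and Tsc1 RPE KO was 244 and 508 CPM in members, 384 and 701 CPM in nonclassical monocytes (ratio 1.83), 2.04 times higher in Tsc1 RPE KO in B cells (15 and 25 UMIs) and 37.4 and 101 CPM in the other barcodes (2.71). Ppp2cb, a phosphatase subunit in the same window, had 44.1 and 88.7 CPM in members and 44.5 and 98.1 CPM in nonclassical monocytes, but 41.3 and 36.1 CPM in B cells. Rbpms, also there, had 313 and 348 CPM in nonclassical monocytes. Its higher level in Tsc1 RPE KO members had no counterpart of that size in those cells, nor in B cells (ratio 1.07) or the other barcodes (1.26). Free RNA, however, held 59.0 and 125 CPM of Rbpms, beside 52.4 and 138 CPM in members. Gtf2e2, Leprotl1 and Saraf had ratios of 0.931, 1.23 and 0.931 in members.

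The Ifi200 genes on chromosome 1 differed from one another. Ifi202b had 310 and 135 CPM in members and 151 and 53.3 CPM in nonclassical monocytes, and Mndal had 220 and 120 CPM in nonclassical monocytes but 459 and 459 CPM in B cells. Ifi204 had 317 and 327 CPM in members, and Ifi209 had a ratio of 1.96 in members and 0.857 in nonclassical monocytes. Genes of this family are close in sequence, so that reads may have been split between them.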
